A study of Mus musculus with 9 samples.

Results

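The receptors described here are 9 genes that sense steroid hormones or share the fold of such receptors: Esr1, Esr2 and Gper1 for estrogens, Pgr for progesterone, Nr3c1 for glucocorticoids, Nr3c2 for mineralocorticoids, and the estrogen-related receptors Esrra, Esrrb and Esrrg. They were chosen by gene symbol, with earlier results of these data known, and are 9 of the 34619 unique gene symbols in the data. RNA was sequenced from the uterus of female wild-type CD-1 (ICR) mice, an outbred stock, bought at 7 to 8 weeks of age, kept for 1 week before dosing and fed an estrogen-free diet. The 3 groups were dosed by gavage over 28 days. Controls received corn oil alone, and the exposed mice received bisphenol B (BPB) or bisphenol AF (BPAF), each at a daily 300 µg per kg of body weight. Each group had 3 libraries. The labels number them and do not say that each is a separate mouse. Where they are not, the p-values measure only the spread between these libraries. The labels give neither the estrous stage nor the time of day at collection. The comparisons ask how each exposed group differed from the control and how the bisphenols differed from each other.

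Estrogens act in the uterus mainly through Esr1, a ligand-activated transcription factor that binds DNA at estrogen response elements and drives epithelial growth and the synthesis of Pgr. Pgr, once bound by progesterone, opposes estrogen in the epithelium and prepares the stroma for implantation. Gper1 is a membrane receptor that signals through G proteins, Nr3c1 and Nr3c2 bind a shared DNA element as corticosteroid receptors, and the estrogen-related receptors bind no known natural estrogen and act on genes of mitochondrial energy metabolism. BPB and BPAF replace bisphenol A in plastics and resins. In BPB an ethyl group stands in place of a methyl group of bisphenol A, and in BPAF both methyl groups carry fluorine in place of hydrogen.

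The start-site windows are shown for 3 of the receptor genes whose libraries lay apart between groups. Pgr was lower in all exposed libraries, and Esr2 and Nr3c2 were higher in the BPB libraries. Esr1 was also lower in all BPB libraries, and its windows are not shown. The windows shown are the 250 bases before the RefSeq start site in GRCm38.p6, written 5′ to 3′ on the gene's strand. The Pgr window is chr9:8899583-8899832 on the plus strand, with its GC box (GGGCGG) in capitals. The Esr2 window is chr12:76177260-76177509 on the minus strand and the Nr3c2 window is chr8:76902080-76902329 on the plus strand. Capitals in both mark the core of the estrogen response element, GGTCA or its reverse complement TGACC. The GC boxes of Nr3c2, which began 168, 85 and 67 bases before its start site, are not marked.
Pgr: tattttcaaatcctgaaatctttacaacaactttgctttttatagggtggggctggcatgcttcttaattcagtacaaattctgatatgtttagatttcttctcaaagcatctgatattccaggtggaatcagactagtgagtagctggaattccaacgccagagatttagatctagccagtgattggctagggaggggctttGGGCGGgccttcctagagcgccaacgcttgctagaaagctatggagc
Esr2: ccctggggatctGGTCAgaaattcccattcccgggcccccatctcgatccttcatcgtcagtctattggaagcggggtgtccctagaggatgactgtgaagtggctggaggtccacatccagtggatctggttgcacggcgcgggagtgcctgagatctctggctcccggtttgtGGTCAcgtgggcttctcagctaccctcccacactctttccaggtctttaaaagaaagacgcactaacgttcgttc
Nr3c2: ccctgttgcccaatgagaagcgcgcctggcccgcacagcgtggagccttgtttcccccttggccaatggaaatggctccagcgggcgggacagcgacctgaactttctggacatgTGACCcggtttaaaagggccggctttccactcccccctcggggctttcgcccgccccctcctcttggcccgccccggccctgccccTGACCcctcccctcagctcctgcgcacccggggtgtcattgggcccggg
The GC box of Pgr began 47 bases before the start site, and the marked cores began 238 and 75 bases before it in Esr2 and 135 and 49 bases before it in Nr3c2. RefSeq windows were found for 8 of the 9 receptor genes, 13 windows in all. On both strands and counting overlapping matches, GGTCA was present in windows of 3 of these 8 genes (Esr2, Nr3c2 and Esrrb) and in 35.2% of all 32851 windows. The GC box was present for 4 of the 8 (Pgr, Nr3c2, Esrra and Esrrg) and in 32.7% of all windows. The glucocorticoid core AGAACA was found for Esrrb, against 16.1% of all windows. A gene counts here with a match in any of its windows (4 for Esrrg, 2 each for Esr1 and Esrrb). The percentages count single windows, so the gene counts and the percentages are unlike measures. The windows of Esr1, which was also apart in BPB, held none of the motifs searched. The full estrogen element GGTCANNNTGACC (0.0639% of all windows), the estrogen-related receptor element TCAAGGTCA (0.387%) and the full glucocorticoid element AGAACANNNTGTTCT (0.00913%) matched none of the 13. TCAAGGTCA and the full estrogen element both contain the GGTCA core, and the full glucocorticoid element contains AGAACA. A match describes letters only.

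The library totals behind the values were inferred, as those giving the most whole reads. They ran from 12620130 reads in control 3 to 15616630 in BPB 2. The read numbers of receptor genes below rest on these totals and on inferred gene lengths. Levels are FPKM, that is, reads divided by gene length in kilobases and by library size. Genes known from the urothelium, the lining of the urinary tract, set some libraries apart. The mean log2(FPKM + 1) over 15 urothelial markers was 0.92 to 1.33 in the controls and 6.03 to 6.82 in BPB. It was 5.86 in BPAF 1, 0.97 in BPAF 2 and 1.01 in BPAF 3. Of the 15 markers 11 rose in BPB, with the smallest p for Tbx2 and Gata3, and 1, the uroplakin Upk3a, was at 0 in all 3 controls, in BPAF 2 and in BPAF 3. Upk3a and Gata3 passed the filter of 1 FPKM only through BPB and BPAF 1. Over 12 smooth muscle markers the mean of the libraries ranged from 6.35 to 7.26 (control), 7.81 to 8.60 (BPB) and 5.20 to 6.53 (BPAF), and 3 of the 12 rose in BPB, among them Synm and Synpo2. Over 8 skeletal muscle markers it ranged from 1.88 to 2.27 (control), 2.55 to 3.14 (BPB) and 0.87 to 2.24 (BPAF), and 2 of the 6 tested, Myh2 and Ckm, rose in BPB. Of these 6, 4 had a higher and 2 a lower mean in BPB, and Myh2 reached 1 FPKM in the BPB libraries alone. The mean over 12 uterine epithelial markers was 5.20 to 6.62 and over 12 endometrial stromal markers 4.62 to 5.82 across all 9 libraries. In BPB against control 0 of either were called by limma. At an unadjusted p under 0.05 were 3 and 4 of them, where 17.4% of all tested genes were. Ovarian markers had means of 0.19 to 0.88. The part of these other cells in the receptor values was not tested, so BPAF differences from control and list counts are also given without BPAF 1. For receptors below the filter the values of BPAF 2 and BPAF 3 stand beside it. In bulk RNA, fewer cells of a type and less RNA per cell cannot be told apart.

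Of the 9 receptor genes 5 (Esr1, Pgr, Gper1, Nr3c1 and Esrra) reached 1 FPKM in at least 3 libraries and entered the fit across 13743 genes. The other 4 stayed below that level and were tested singly by an exact permutation test, for which 0.1 is the smallest p that 3 against 3 libraries allow. With limma and Benjamini-Hochberg adjustment over all tested genes, 0 of the 5 were called in BPB against control at an adjusted p under 0.05, where 2.55% of all tested genes (351) were called. In BPAF against control 0 of 5 were called, against 0.0218% of all genes (3), and in BPAF against BPB 0 of 5, against 0.24% (33). At an unadjusted p under 0.05, limma gave 1 of the 5 in BPB, 1 in BPAF and 0 in BPAF against BPB, and the gene was Pgr both times. The shares of all tested genes at that level were 17.4%, 12.8% and 6.75%. Of the 351 genes called in BPB, 282 were higher and 69 lower. With median-ratio scaling of the libraries 204 were higher and 108 lower, and the median log2 difference over all tested genes went from 0.15 to -0.04 (BPB) and from 0.21 to -0.02 (BPAF) under it. The 2 exposed groups share the control libraries.

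**Figure D1:**
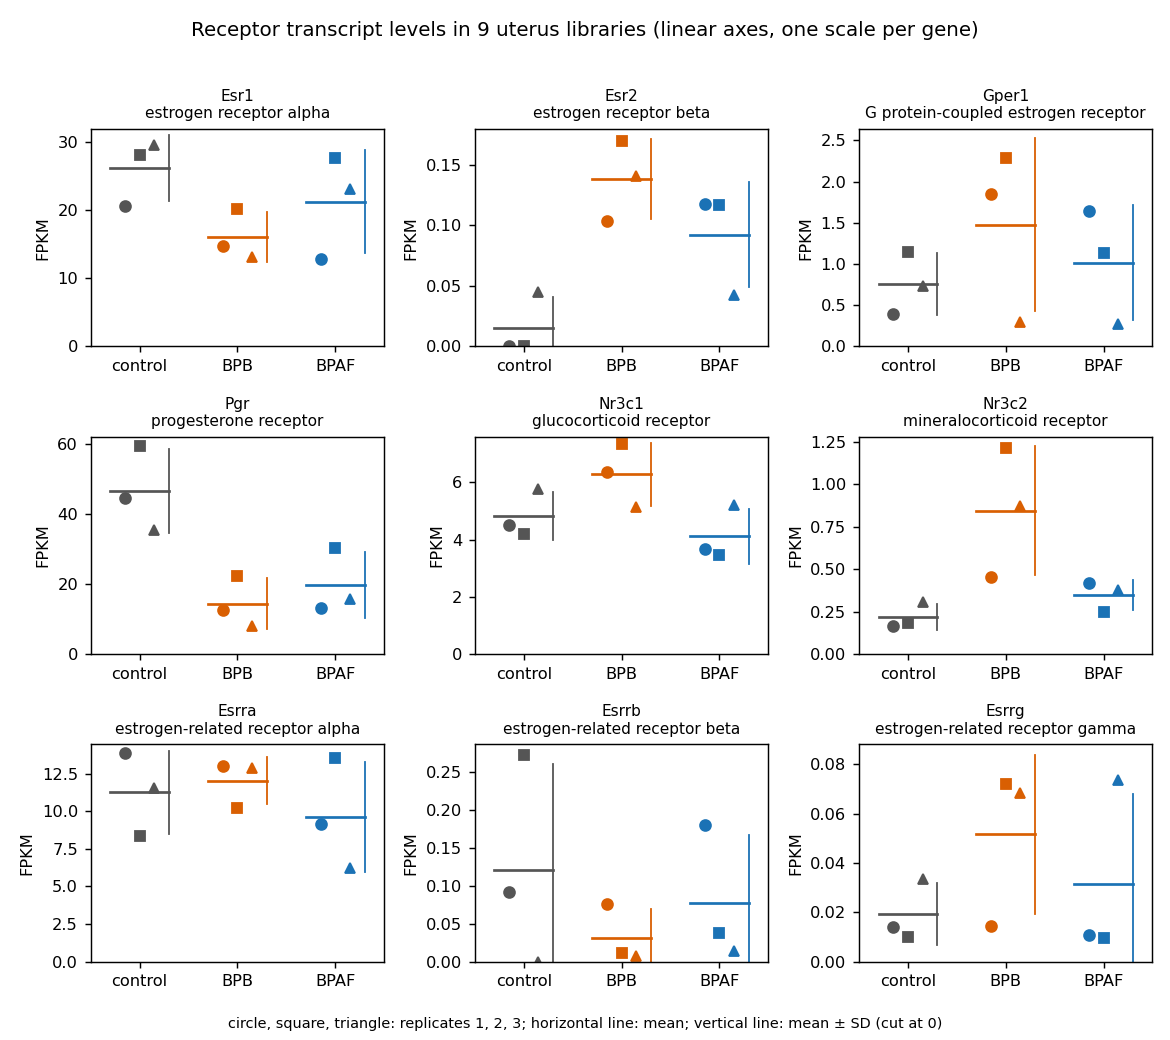
Levels of the 9 receptor genes in FPKM (linear axes, 1 panel and scale per gene) for control, BPB and BPAF. Points are libraries, with replicates 1, 2 and 3 as circle, square and triangle, horizontal lines are means and vertical lines mean ± SD (n = 3); all 6 exposed libraries lie below the 3 controls for Pgr, and the Esr2 and Nr3c2 points of BPB lie above all controls.

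Pgr encodes the progesterone receptor and is itself a gene that estrogen induces in the uterus. It was at 44.8, 59.5 and 35.6 FPKM in control libraries 1 to 3, at 12.5, 22.4 and 8.10 in BPB, and at 13.0, 30.4 and 15.7 in BPAF. All 6 exposed libraries were below all 3 controls, as for 1.69% of tested genes. The mean was 46.6 ± 12.1 in controls and 14.3 ± 7.32 in BPB (SD, n = 3), a ratio of control to BPB of 3.25. On the log2(FPKM + 1) scale the difference was -1.71 (SE 0.42, 95% interval -2.65 to -0.77, limma adjusted p = 0.0672). It did not pass the threshold. Only under median-ratio scaling, among the alternatives tried at this threshold, did it pass, at -1.95 (limma adjusted p = 0.0453), and over all of them the adjusted p ranged from 0.0453 to 0.245. Of all tested genes 3.58% had a smaller p. In BPAF the mean was 19.7 ± 9.37 (SD, n = 3), below all controls as for 2.5% of tested genes, and the difference was -1.26 (SE 0.42, 95% interval -2.20 to -0.32, limma adjusted p = 0.304). Without BPAF 1, the library with urothelial markers, it was -1.02 (limma adjusted p = 0.516), and the remaining pair at 30.4 and 15.7 FPKM was still below every control. The gap to the controls was narrow in 1 place: control 3 at 35.6 against BPAF 2 at 30.4. When the libraries were scaled to equal FPKM sums the order of these libraries turned, with control 3 at 25.5 and BPAF 2 at 31.4. With median-ratio scaling the gap was wider, with control 3 at 48.5 and BPAF 2 at 28.3. Control 3 had the largest FPKM sum of the 9 libraries, 495778 beside 284387 and 279547 in controls 1 and 2. Equal sums therefore lower its values, whereas median-ratio scaling raises them (factor 0.734). The share of all genes whose groups lie apart was counted on the deposited values only.

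Esr1 encodes estrogen receptor alpha, the main estrogen receptor of the uterus. It was at 20.6, 28.1 and 29.6 FPKM in controls, 14.7, 20.1 and 13.2 in BPB, and 12.9, 27.6 and 23.1 in BPAF. The BPB libraries were all below the controls for Esr1, by a margin of 20.1 in BPB 2 against 20.6 in control 1, and among tested genes 6.1% lay below the controls in this way. The BPAF libraries overlapped with the controls, and the lowest of them was BPAF 1. Esr1 averaged 26.1 ± 4.81 FPKM over the controls, 16.0 ± 3.66 over BPB and 21.2 ± 7.54 over BPAF (SD, n = 3). The difference on the log2(FPKM + 1) scale was -0.68 for BPB (SE 0.32, 95% interval -1.39 to 0.04, limma adjusted p = 0.311) and -0.34 for BPAF (SE 0.32, -1.05 to 0.38, limma adjusted p = 0.676). Without BPAF 1 the BPAF difference was -0.03 (limma adjusted p = 0.982).

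Pgr divided by Esr1 within a library does not depend on how libraries are scaled. The ratio of FPKM was 2.17, 2.12 and 1.20 in controls, 0.853, 1.11 and 0.616 in BPB and 1.01, 1.10 and 0.680 in BPAF. The 6 exposed libraries were all below the lowest control, BPAF 2 and BPAF 3 included, although control 3 at 1.20 was close to BPB 2 at 1.11. The ratio averaged 1.83 ± 0.546 over the controls, 0.860 ± 0.249 over BPB and 0.933 ± 0.223 over BPAF (SD, n = 3). The exact permutation test on the log2 ratio (two-sided) gave p = 0.1 for each exposed group against control, the smallest it allows, and p = 0.7 for BPAF against BPB. These p-values are not adjusted, and the share of other gene pairs whose ratios lie apart in this way was not computed. Of 3 such ratios computed, the third, Esrra to Esr1, overlapped between groups in every comparison. The ratio's absolute value rests on the gene lengths behind the FPKM, which are described below.

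**Figure D2:**
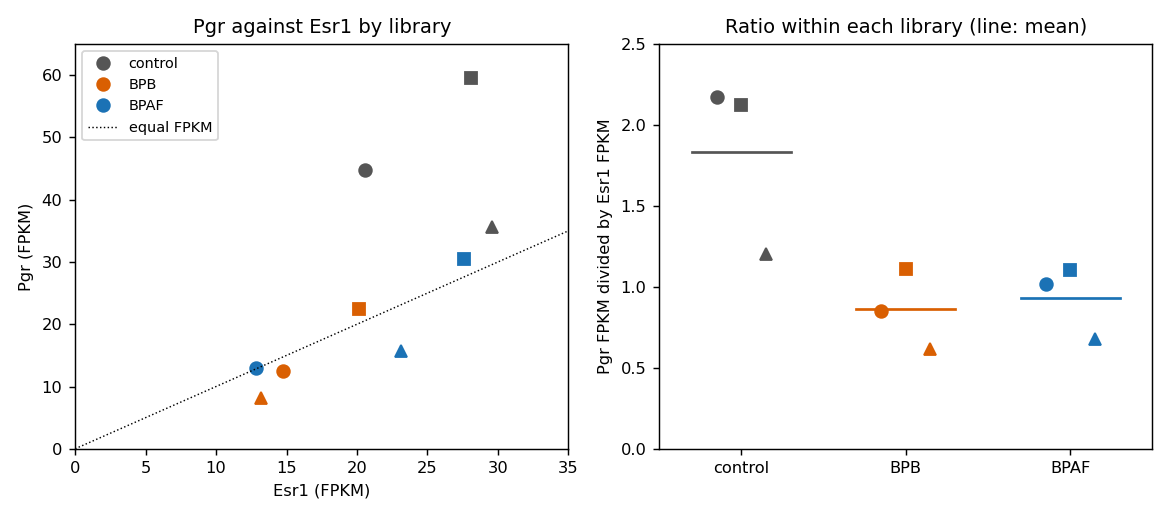
Left, Pgr against Esr1 (both FPKM, linear axes) in 9 libraries, with replicates 1, 2 and 3 as circle, square and triangle and a dotted line of equal FPKM. Right, Pgr FPKM divided by Esr1 FPKM in each library with group means as lines; the controls lie at 1.20 to 2.17 and the exposed libraries at 0.616 to 1.11.

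Esr2 encodes estrogen receptor beta, which is known for its high level in the ovary and low level in the uterus. It was at 0, 0 and 0.0449 FPKM in controls, 0.103, 0.169 and 0.141 in BPB, and 0.118, 0.116 and 0.0423 in BPAF. The values rest on few reads: 0, 0 and 3 in controls, 8, 14 and 10 in BPB, and 8, 9 and 3 in BPAF. A count of 0 allows up to 3 reads, which is 0.0376 FPKM in control 1 and 0.0409 in control 2. The 3 BPB libraries were above all controls, and among genes below the filter 12% were. BPAF 3 lay below control 3, so BPAF overlapped with the controls. With equal FPKM sums, which lower control 3 to 0.0321, all BPAF libraries were above the controls. The exact permutation p (two-sided) was 0.1 for BPB, 0.2 for BPAF and 0.3 for BPAF against BPB. At this depth counting error is a large part of each value, and the read numbers cover counting error only.

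Gper1 encodes the G protein-coupled estrogen receptor. It was at 0.394, 1.14 and 0.732 FPKM in controls, 1.85, 2.28 and 0.295 in BPB and 1.65, 1.13 and 0.272 in BPAF. The lowest values of the 9 libraries were BPAF 3 and BPB 3, with 11 and 12 reads, and the groups overlapped in all 3 comparisons. The log2(FPKM + 1) difference was 0.41 for BPB (95% interval -0.50 to 1.32, limma adjusted p = 0.669) and 0.16 for BPAF (-0.75 to 1.07, limma adjusted p = 0.893). Without BPAF 1 the BPAF value turned to -0.07 (limma adjusted p = 0.969).

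The corticosteroid receptors differed in level and in spread. Nr3c1, the glucocorticoid receptor, was at 4.51, 4.19 and 5.77 FPKM in controls, 6.36, 7.34 and 5.14 in BPB and 3.66, 3.48 and 5.22 in BPAF. Its groups overlapped in every comparison as deposited. With median-ratio scaling and with equal FPKM sums all BPAF libraries were below all BPB libraries, narrowly in the first case (4.88 in BPAF 3 against 4.90 in BPB 3). With equal sums all BPB libraries were also above the controls, but almost level with them in 1 place (5.640 in BPB 3 against 5.637 in control 1). The log2(FPKM + 1) difference was 0.32 for BPB (95% interval -0.21 to 0.85, limma adjusted p = 0.547) and -0.19 for BPAF (-0.73 to 0.34, limma adjusted p = 0.757), or -0.13 without BPAF 1 (limma adjusted p = 0.903).

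Nr3c2, the mineralocorticoid receptor, which controls sodium transport in the kidney and other epithelia, was at 0.166, 0.181 and 0.307 FPKM in controls. It was at 0.452, 1.21 and 0.871 in BPB and 0.419, 0.250 and 0.375 in BPAF. The reads behind these values were 35, 35 and 54 in controls, 92, 264 and 163 in BPB, and 75, 51 and 70 in BPAF. All BPB libraries were above all controls, as for 12% of the genes below the filter, and above all BPAF libraries, as for 4.76% of them. BPAF overlapped with the controls, with BPAF 2 below control 3. With equal FPKM sums, which lower control 3 to 0.220, all BPAF libraries were above the controls. Nr3c2 averaged 0.218 ± 0.0771 FPKM over the controls, 0.845 ± 0.38 over BPB and 0.348 ± 0.0875 over BPAF (SD, n = 3), a ratio of BPB to control of 3.88. The exact permutation p (two-sided) was 0.1 for BPB against control, 0.2 for BPAF against control and 0.1 for BPAF against BPB. Nr3c2 divided by Nr3c1 was 0.0368, 0.0431 and 0.0531 in controls, 0.0710, 0.165 and 0.169 in BPB and 0.114, 0.0720 and 0.0719 in BPAF. All 6 exposed libraries lay above the controls in this ratio, with an exact permutation p of 0.1 for each exposed group. Nr3c2 alone overlapped between BPAF and the controls, and BPAF 2 had the lowest Nr3c1 of the 9 libraries, at 3.48 FPKM. The share of other gene pairs whose ratios lie apart in this way was not computed. An exon of Nr3c2 overlaps Gm10649 on the other strand, which was at 0.0567 FPKM or less in every library. Whether strand was used in the counting is not given in the sources used here.

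Among the estrogen-related receptors Esrra was the one well above the filter. It was at 13.9, 8.36 and 11.5 FPKM in controls, 13.0, 10.2 and 12.9 in BPB and 9.12, 13.5 and 6.23 in BPAF. All groups overlapped. The log2(FPKM + 1) difference was 0.11 for BPB (95% interval -0.57 to 0.78, limma adjusted p = 0.907) and -0.24 for BPAF (-0.92 to 0.44, limma adjusted p = 0.762), or -0.23 without BPAF 1 (limma adjusted p = 0.858). The BPB value was -0.12 with median-ratio scaling. Esrra shares exon sequence with Trmt112 on the other strand, which was at 2.48 to 6.06 FPKM, so reads could be split between them.

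Esrrb and Esrrg were close to the limit of detection. Esrrb, a factor of pluripotent and trophoblast cells, was at 0.0917, 0.273 and 0 FPKM in controls (15, 41 and 0 reads), 0.0759, 0.0118 and 0.00688 in BPB and 0.180, 0.0379 and 0.0138 in BPAF. The 0 in control 3 allows up to 0.0219 FPKM. Esrrg, a receptor of oxidative muscle, kidney and brain, was at 0.0140, 0.0101 and 0.0334 FPKM in controls, 0.0145, 0.0721 and 0.0682 in BPB and 0.0110, 0.00964 and 0.0736 in BPAF, on 2 to 16 reads. Controls and exposed libraries overlapped for both genes. The exact permutation p (two-sided) was 0.4 and 0.7 for Esrrb in BPB and BPAF against control, and 0.2 and 0.9 for Esrrg.

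The bisphenols were compared with each other at the same dose by mass and the same duration, as a single pair. None of the 5 receptor genes in the fit passed the test in BPAF against BPB, and every interval included 0. The log2(FPKM + 1) difference, BPAF minus BPB, was 0.45 for Pgr (95% interval -0.48 to 1.39, limma adjusted p = 0.986) and 0.34 for Esr1 (-0.37 to 1.05, limma adjusted p = 0.988). It was -0.51 for Nr3c1 (-1.05 to 0.02, limma adjusted p = 0.755), -0.35 for Esrra (-1.02 to 0.33, limma adjusted p = 0.983) and -0.25 for Gper1 (-1.16 to 0.65, limma adjusted p = 0.997). Without BPAF 1 the values were 0.69 for Pgr, 0.65 for Esr1, -0.45 for Nr3c1, -0.34 for Esrra and -0.48 for Gper1, with limma adjusted p from 0.700 to 0.999. In that setting 234 of all tested genes were called in place of 33. With the replicate number as a block in the fit of all 9 libraries, which blocks the controls by number too, 0 were called. A block fit of the 6 BPAF and BPB libraries alone, chosen after seeing the data, also called 0. It gave 1788 of all tested genes an unadjusted p under 0.05 (limma), beside 927 in the main fit. Its intervals were -0.09 to 0.996 for Pgr, -0.25 to 0.93 for Esr1 and -1.11 to 0.08 for Nr3c1. They were -1.07 to 0.37 for Esrra and -0.83 to 0.33 for Gper1. Within the 3 pairs, which were taken from these same data, BPAF was above BPB in 3 of 3 for Pgr and Esrrb. It was below BPB in 3 of 3 for Gper1 and Nr3c2. For Nr3c2 this order was fixed, since all its BPB libraries were above all its BPAF libraries. For Esrrb it rests on 12, 2 and 1 reads in BPB and 25, 6 and 2 in BPAF. The share of all genes with such an order was not counted, so no conclusion is drawn from it. Below the filter, Nr3c2 was the gene whose BPAF and BPB libraries did not overlap, and Esrrb and Esrrg had an exact permutation p of 0.5 and 0.6.

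**Figure D3:**
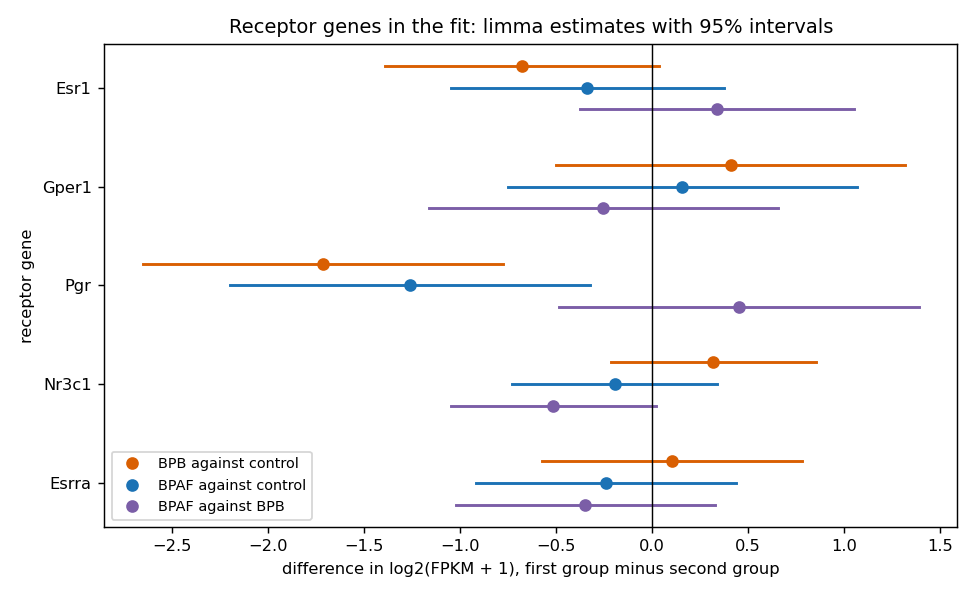
Differences in log2(FPKM + 1) for the 5 receptor genes in the fit, with limma estimates as points and 95% intervals as lines, for BPB against control, BPAF against control and BPAF against BPB. The Pgr intervals of both exposed groups against control lie below 0 before adjustment, at -2.65 to -0.77 and -2.20 to -0.32, and the 3 intervals of Gper1, Nr3c1 and Esrra each include 0.

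Levels between receptor genes can be compared only per length, and the length matters here. The length behind the values was inferred. For genes with several GENCODE M21 transcripts, 3 lengths were tried on values of up to 200 reads, and a value counted as whole within 0.02 reads. The sum of all distinct annotated exons, overlapping exons counted repeatedly, gave whole reads for 74.3% of 48760 values, merged exons for 5.27% of 58887 and the longest transcript for 6.55% of 67576. The length recovered for a receptor gene equalled that sum for 4 of the 9 (Esr1, Pgr, Gper1 and Nr3c2). It was within 0.132% for Esr2, Esrrb and Esrrg, 2.20% off for Nr3c1 and 31.2% off for Esrra. By the recovered length Esr1 had 19004 bases, 3.0 times its longest transcript, and Pgr had 12576 bases, 1.83 times. In deposited FPKM the order in all 3 controls was Pgr, Esr1, Esrra, Nr3c1 and Gper1, with the ranges of neighbours apart. Nr3c2, Esrrb, Esrrg and Esr2 followed, each overlapping with the next. Per kilobase of the longest transcript, Pgr at 85.1 ± 22.1 and Esr1 at 78.2 ± 14.4 (SD, n = 3) overlapped in the controls, and control 3 had more Esr1 than Pgr. On that scale Esr1 was above Pgr in all 6 exposed libraries. In deposited FPKM it was above Pgr in BPB 1, BPB 3 and BPAF 3. The ratio of FPKM between groups within a gene does not depend on the length, whereas a difference in log2(FPKM + 1) does, through the added 1.

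The genes whose pattern over the 9 libraries was most like each receptor in the fit were ranked by Pearson's r of log2(FPKM + 1), as a description in which the groups are pooled. For Pgr these were Ttc39c (r = 0.96), Ngfr (0.96) and Gadd45g (0.95). For Esr1 they were Plscr4 (0.93), Pdzd8 (0.90) and Taf4b (0.89). For Gper1 they were Meis2 (0.89), Ubl4a (0.87) and Eri2 (0.85), and for Nr3c1 St7l (0.84), Mbnl2 (0.83) and Cidea (0.83). For Esrra they were Perp (0.89), Fam217b (0.89) and Olfr558 (0.88). The rank correlation of Perp with Esrra was only 0.45.

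Proteins that act with the receptors were read from lists of 29 coregulators and 17 chaperones. Of 27 coregulators tested, 1 rose and 0 fell in BPB, where 2.55% of all genes were called. The median log2 difference was 0.14, beside 0.15 over all tested genes. The one that rose was Foxa1, a pioneer factor that opens chromatin for steroid receptors and is also made in urothelium. It was listed at 0 in all 3 controls and was at 22.2 ± 8.38 FPKM in BPB (SD, n = 3, limma adjusted p = 0.0259), at 8.73 in BPAF 1 and at 0 in BPAF 2 and BPAF 3. It passed the filter only through BPB and BPAF 1, the libraries that carry the urothelial markers. Ncoa7, a coactivator, was at 12.8 ± 9.27 FPKM in BPB and 94.0 ± 79.7 in controls (SD, n = 3, limma adjusted p = 0.103). The 17 chaperones hold steroid receptors ready for hormone, and 0 were called by limma in BPB. Where 17.4% of all genes had an unadjusted p under 0.05, 2 of the chaperones did. These were Hspa4, at 44.5 ± 11.8 FPKM against 82.5 ± 7.20 in controls, and Fkbp5, a cochaperone that glucocorticoids induce, at 3.44 ± 1.80 against 1.41 ± 0.659 (SD, n = 3, limma adjusted p = 0.204 and 0.277). In BPAF against control 0 of either list were called by limma. At an unadjusted p under 0.05 were 3 coregulators and 2 chaperones (12.8% of all genes were), and 2 and 0 without BPAF 1. The medians were 0.03 and 0.24, and 0.25 and 0.23 without BPAF 1, beside 0.21 and 0.19 over all genes. The coregulators with the smallest p were Phb2, a repressor of estrogen receptor activity, at 41.0 ± 6.62 FPKM in BPAF and 23.8 ± 6.22 in controls, and Ppargc1a, a coactivator of energy metabolism, at 1.59 ± 0.944 and 0.349 ± 0.166 (SD, n = 3, limma adjusted p = 0.304 for both). Fkbp5 was at 3.24 ± 1.14 FPKM in BPAF (SD, n = 3, limma adjusted p = 0.390). Fkbp4, the cochaperone that Pgr needs in the uterus, was at 117 ± 32.9 FPKM in BPAF and 70.0 ± 3.64 in controls (SD, n = 3, limma adjusted p = 0.390).

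Of 39 other nuclear receptors 23 were tested, and 3 rose and 0 fell in BPB, where 2.55% of all genes were called. The median was 0.56, beside 0.15 over all genes. Nr1d1 and Nr1d2 are repressors of the circadian clock. Nr1d1 was at 2.82 ± 1.03 FPKM in controls and 26.6 ± 11.8 in BPB (SD, n = 3), a log2 difference of 2.79 (SE 0.36, limma adjusted p = 0.0144). Nr1d2 was at 6.99 ± 2.21 and 20.2 ± 5.42 (limma adjusted p = 0.0443, SD, n = 3). Both were also higher in every BPAF library than in every control, as were 14.3% of tested genes, at 16.5 ± 2.04 and 28.9 ± 6.16 FPKM (SD, n = 3), with limma adjusted p of 0.147 and 0.134. Pparg, the adipocyte and urothelial receptor, was at 1.09 ± 0.701 FPKM in controls and 13.9 ± 3.20 in BPB (limma adjusted p = 0.0493, SD, n = 3), and at 11.1 in BPAF 1 beside 0.793 and 1.32 in BPAF 2 and 3. The mean log2(FPKM + 1) over 8 adipocyte markers was 2.34 to 2.49 in controls, 2.54 to 4.86 in BPB, and 4.40, 0.26 and 4.06 in BPAF 1, 2 and 3, and its part was not tested. In BPAF 0 of the 23 were called by limma, with 4 at an unadjusted p under 0.05 (12.8% of all genes were) and a median of 0.24, beside 0.21 over all genes. Without BPAF 1 the count was 4 and the median 0.31.

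Most genes known to respond to estrogen had a lower mean in BPB. Of 32 tested, 0 rose and 4 fell, where 2.55% of all genes were called in either direction. A lower mean was seen for 23 of the 32, with a median log2 difference of -1.54 beside 0.15 over all genes. At an unadjusted p under 0.05, 17 were lower and 2 higher, where 17.4% of all genes were at that level in either direction. The 4 that fell were Sprr2b and Sprr2g, small proline-rich proteins of the epithelium, Oxtr, the oxytocin receptor, and Cebpb, a transcription factor of epithelium and decidua. Sprr2b was at 125 ± 44.6 FPKM in controls and 2.96 ± 4.11 in BPB (SD, n = 3), a log2 difference of -5.45 (SE 0.96, limma adjusted p = 0.0276). Oxtr was at 37.0 ± 21 and 2.18 ± 1.14 FPKM (-3.46, limma adjusted p = 0.0416, SD, n = 3). Cebpb was at 68.3 ± 13.2 and 24.4 ± 3.76 FPKM (-1.44, limma adjusted p = 0.0381, SD, n = 3), and Sprr2g at 27.8 ± 12.9 and 4.10 ± 2.42 (-2.56, limma adjusted p = 0.0490, SD, n = 3).

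In BPAF 0 of the 32 estrogen-responsive genes were called by limma. At an unadjusted p under 0.05 were 11 (12.8% of all genes were), 9 of them lower, and 11 without BPAF 1. Sprr2b was at 6.44 ± 6.70 FPKM and Fos, an immediate-early factor, at 4.39 ± 1.77 beside 17.2 ± 7.12 in controls (SD, n = 3, limma adjusted p = 0.216 and 0.228). Their median was -1.03 beside 0.21 over all genes, and -0.89 without BPAF 1. The list's mean log2(FPKM + 1) was 4.74 to 5.42 in controls, 3.33 to 3.93 in BPB, and 3.85, 4.72 and 3.32 in BPAF 1, 2 and 3. BPAF 2, which had the most Pgr of the exposed libraries, lay just below the lowest control. The mean over uterine epithelial markers was 5.68 to 6.47 in controls, 5.20 to 6.23 in BPB and 5.39 to 6.62 in BPAF, and its part in these values was not tested.

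Among genes known to respond to progesterone, more had a higher than a lower mean in both exposed groups. Of 26 tested, 0 were called in BPB by limma, with 8 higher and 1 lower at an unadjusted p under 0.05 (17.4% of all genes were). In each exposed group 21 had a higher mean, where the median over all genes was also above 0. The list's median was 1.14 in BPB and 0.92 in BPAF (0.87 without BPAF 1), beside 0.15 and 0.21 over all genes. Bmp2, a decidual growth factor, was at 2.08 ± 0.578 FPKM in controls and 9.05 ± 0.839 in BPB (SD, n = 3, limma adjusted p = 0.0591). Ptch1, the hedgehog receptor that reports Ihh signalling in the stroma, was at 1.59 ± 0.674 and 5.64 ± 1.23 (SD, n = 3, limma adjusted p = 0.0577). In BPAF 0 of 26 were called by limma, with 7 higher and 2 lower at an unadjusted p under 0.05 (12.8% of all genes were), or 7 in all without BPAF 1. Snai2, a factor of mesenchymal cells, was lower in every BPAF library than in every control, as were 2.5% of tested genes. It was at 8.35 ± 3.28 FPKM beside 17.8 ± 3.20 (SD, n = 3, limma adjusted p = 0.289). Gli1, another hedgehog target, was at 19.2 ± 1.89 FPKM beside 6.17 ± 5.36 in controls (SD, n = 3, limma adjusted p = 0.301). The list's mean log2(FPKM + 1) was 1.93 to 2.61 in controls, 2.72 to 3.52 in BPB, and 3.06, 2.45 and 3.75 in BPAF 1, 2 and 3, so BPAF overlapped with the controls. The mean over 8 uterine gland markers was 1.58, 3.37 and 1.19 in controls 1 to 3, 2.29, 1.73 and 4.61 in BPB and 2.14, 1.46 and 5.63 in BPAF. Of the 8, 7 had a higher mean in each exposed group, and their part in the list was not tested.

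Of 28 glucocorticoid-responsive genes tested, 0 rose and 1 fell in BPB, the gene being Cebpb, which also stands on the estrogen list. The median was 0.30, beside 0.15 over all genes, and 12 of the 28 had an unadjusted p under 0.05, where 17.4% of all genes did. Angptl4, a lipase inhibitor, was at 4.72 ± 1.37 FPKM beside 18.0 ± 10.7 in controls (SD, n = 3, limma adjusted p = 0.0726). Of 16 mineralocorticoid-responsive genes tested, 2 rose and 0 fell, where 2.55% of all genes were called. The list's median was 0.62, and 7 were at an unadjusted p under 0.05. Ndrg2, a stress- and aldosterone-induced gene, was at 34.9 ± 7.64 FPKM in controls and 225 ± 48.3 in BPB (SD, n = 3), a log2 difference of 2.66 (SE 0.45, limma adjusted p = 0.0259). Scnn1g, the gamma subunit of the epithelial sodium channel, was at 0, 0 and 0.0265 FPKM in controls and at 3.96, 9.55 and 14.0 in BPB (limma adjusted p = 0.0300). Both were also high in BPAF 1, at 166 FPKM for Ndrg2 and 4.07 for Scnn1g, beside 42.8 and 78.7 for Ndrg2 and 0 and 0.475 for Scnn1g in BPAF 2 and 3. Scnn1g passed the filter only through BPB and BPAF 1. In BPAF 0 genes of either list were called by limma, with 8 and 4 at an unadjusted p under 0.05 (12.8% of all genes were), or 6 and 2 without BPAF 1. The medians were 0.40 and 0.50, or 0.48 and 0.36 without BPAF 1, beside 0.21 and 0.19 over all genes. Cebpb was at 31.6 ± 9.69 FPKM in BPAF, and Saa3, an acute-phase gene, at 0.800 ± 0.452 beside 35.7 ± 46.2 in controls (SD, n = 3, limma adjusted p = 0.279 and 0.301). Usp2, a deubiquitinase, was at 2.58 ± 0.784 beside 0.643 ± 0.513, and Atp1b1, a sodium pump subunit, at 36.1 ± 12.3 beside 12.9 ± 5.21 (SD, n = 3, limma adjusted p = 0.301 and 0.321).

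Of 29 targets of the estrogen-related receptors tested, 0 were called in BPB by limma. At an unadjusted p under 0.05, 4 were higher and 0 lower, where 17.4% of all genes were at that level in either direction. The median of 0.15 equalled that of all genes. The smallest p were those of Pdk4, which limits glucose oxidation, at 11.1 ± 5.12 FPKM against 2.76 ± 1.14 in controls, and Fabp3, a fatty acid carrier, at 7.77 ± 2.33 against 2.33 ± 1.17 (SD, n = 3, limma adjusted p = 0.157 and 0.215). The BPB libraries also had the higher mean over skeletal muscle markers given above, with 4 of 6 tested markers higher and 2 lower. The part of these markers was not tested. In BPAF 0 were called by limma, with 3 at an unadjusted p under 0.05 (12.8% of all genes were) and a median of 0.06, or 1 and 0.03 without BPAF 1. The smallest p were those of Ppargc1a and of Idh2, a mitochondrial dehydrogenase, at 20.4 ± 4.48 FPKM beside 10.8 ± 6.38 in controls (SD, n = 3, limma adjusted p = 0.324).

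**Figure D4:**
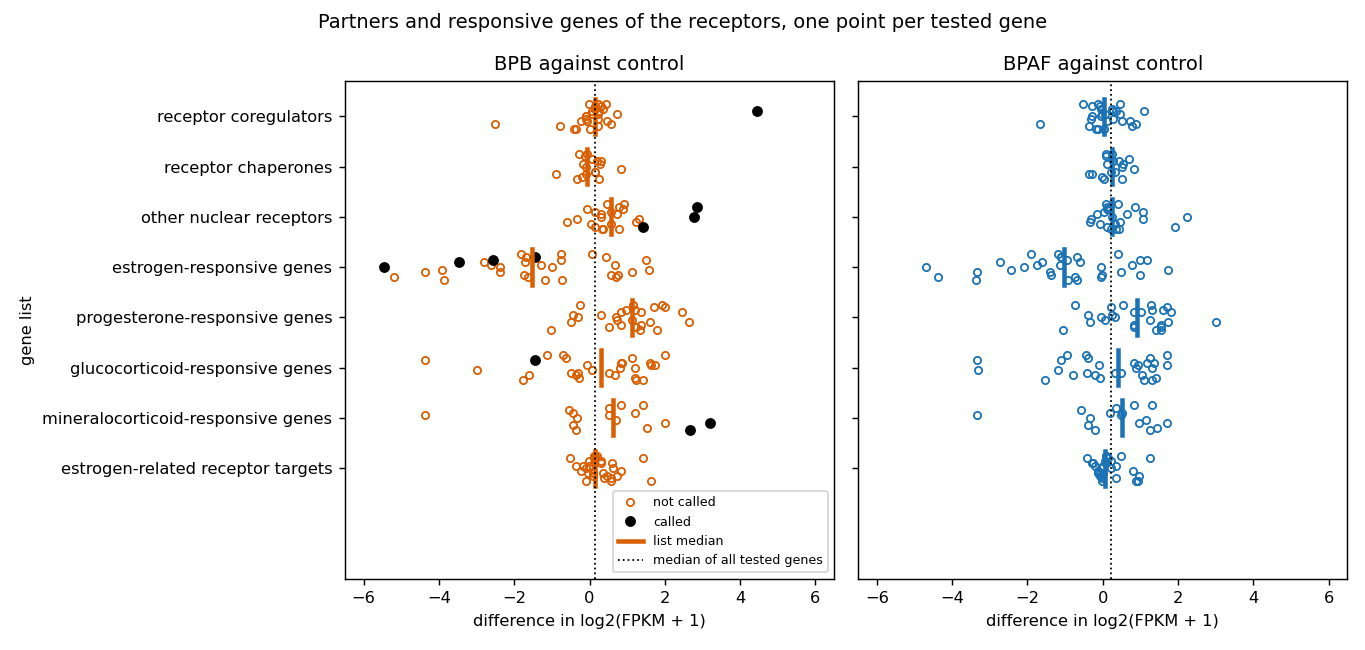
Differences in log2(FPKM + 1) of each tested gene in 8 lists (rows), for BPB against control (left) and BPAF against control (right). Open points are genes not called, filled points called genes, thick bars list medians and the dotted line the median of all tested genes; the estrogen-responsive list has medians of -1.54 and -1.03 and the progesterone-responsive list 1.14 and 0.92.

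The 10 called genes of these lists kept their sign with each library of the comparison left out and under both scalings, but few calls held when a library was left out. With median-ratio scaling 8 of the 10 stayed called, and with equal FPKM sums 5 did, the calls of Nr1d2, Pparg, Cebpb, Oxtr and Sprr2g being lost. Without control 1, BPB 2 or BPB 3, 0 of the 10 were called (limma, smallest adjusted p 0.0667, 0.0690 and 0.0856). Without control 2 or control 3 the call held for Nr1d1 alone, and without BPB 1 for 5 of the 10. In BPAF against BPB 0 genes of the 8 lists were called by limma, with 13 list entries at an unadjusted p under 0.05 (6.75% of all genes were). The genes with the smallest p in each list were Foxa1 and Prmt1, St13 and Fkbp4, Pparg and Nr2f1, Sprr2g and Cdkn1a, Bmp2 and Gata2, Cdkn1a and Angptl4, Scnn1g and Ndrg2, and Mfn2 and Ppargc1b. Their limma adjusted p ranged from 0.177 (Foxa1) to 0.861 (Ppargc1b). Without BPAF 1, 6 genes were called lower in BPAF: Foxa1, Pparg, Rarb, Bmp2, Ndrg2 and Scnn1g, with limma adjusted p from 0.000468 to 0.0473. Of all 13743 tested genes 234 were called in that setting, 229 of them lower. BPAF 1 was left out for its urothelial markers, and Foxa1 and Scnn1g passed the filter only through BPB and BPAF 1. For such genes a lower level in the remaining BPAF libraries was fixed in advance, so their calls are no separate result.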

How the data were processed

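The mRNA of 9 uterus libraries was sequenced from a stranded kit, per the labels' protocols. Each deposited file gives 1 value per gene symbol, read as FPKM that the authors computed and deposited. This reading comes from the values: for genes with a single GENCODE M21 transcript, 82.0% to 85.7% of the values per library came within 0.01 of whole reads. Aligner, counter, build and annotation were not given in the sources used here. Of 34745 lines per file, 126 with 1 of 59 repeated symbols were left out. FPKM is not counts, so the planned count test was not run.

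The filter kept 13743 genes that reached 1 FPKM in 3 or more libraries. The main test was limma 3.58.1 (R 4.3.3) with trend and robust estimation on log2(FPKM + 1), in a single model of the 9 libraries with a group term. A difference on this scale understates changes of low genes. Benjamini-Hochberg adjustment covered the 13743 genes, and a call is an adjusted p under 0.05. Intervals are 95% and not adjusted. The model code was checked on simulated data. Receptors below the filter had a two-sided exact permutation test of log2(FPKM + 1). Groups came from sample titles.

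Same-numbered BPB and BPAF libraries deviated together from their group means (r of 0.34, 0.34 and 0.48 over tested genes), so the numbers were taken as pairs there; the pairing comes from the data and not from the labels. The receptor genes and gene lists were chosen with earlier results of these data known, and gene lists are from general knowledge. From each list the text names up to 4 called genes with the smallest p or, where under 2 were called, the 2 with the smallest p in each comparison, and up to 2 called markers per marker list; Upk3a and Rarb were added after its values were seen. Alternatives were filters, pseudocounts of 0.1 and 0.01, scaling, threshold, 6 libraries alone, the replicate block and each library left out. Sequences are from RefSeq.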

Additional observations from a re-analysis of the deposited data

How the results depend on the processing

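With limma, 351 genes called in BPB against control became 163 with every gene above 0 kept, 152 and 66 with pseudocounts of 0.1 and 0.01, 209 with equal FPKM sums, 774 at an adjusted p under 0.10, and 1 to 221 with 1 library left out. The smallest counts, 1, came without control 1 and without BPB 2. The 3 genes called in BPAF became 1 with equal sums, 0 in a fit of 6 libraries and 1 to 10 with 1 library left out, the 10 without control 3. The 33 called in BPAF against BPB became 11 with every gene above 0 kept, 1 with a mean filter of 1 FPKM, 0 with either pseudocount, 8 with equal sums, 0 in a fit of 6 libraries, 66 at an adjusted p under 0.10 and 0 to 234 with 1 library left out. With the replicate number as a block for all 9 libraries, controls included, 19, 0 and 0 genes were called in the 3 comparisons. Of the 10 list genes called in BPB, 0 kept their call. In a block fit of 6 libraries, an alternative chosen after seeing the data, the counts were 224, 0 and 0. Same-numbered control and exposed libraries had negative correlations of deviations (-0.40 to -0.08), and these numbers were not taken as pairs. The count of receptor genes called was 0 under every alternative except in BPB against control, where it was 1 (Pgr) with median-ratio scaling and 1 at an adjusted p under 0.10.

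Among receptor genes the sign turned in few cases, none past the threshold. Esrra in BPB was -0.12 with median-ratio scaling and -0.075 to 0.26 with 1 library left out. With 1 library left out, BPAF against control ranged from -0.072 to 0.46 for Gper1, -0.49 to 0.0083 for Esrra, -0.13 to 0.041 for Esrrb and -0.013 to 0.032 for Esrrg. BPAF against BPB ranged from -0.67 to 0.047 for Gper1 and -0.0074 to 0.10 for Esrrb. Pgr was -2.07 to -1.39 in BPB and -1.61 to -1.02 in BPAF. The cause of these shifts was not tested. The planned count test on recovered reads was not run, since it needs counts as deposited. With 3 libraries a group, the exact test could not reach 0.05, and Esr2, Esrrb and Esrrg rest on at most 41 reads a library.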
